A study of Mus musculus with 6 samples.

Results

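The receptors for serotonin, noradrenaline and adrenaline, dopamine, histamine and acetylcholine were followed in the arcuate nucleus (ARC) of female mice with and without estrogen receptor alpha (ERα) in that region. Members were taken by gene symbol from all genes counted. The symbols chosen gave 51 receptor genes: 14 for serotonin (*Htr*), 8 adrenergic (*Adra* and *Adrb*), 4 for dopamine (*Drd1a*, *Drd3*, *Drd4* and *Drd5*), 4 for histamine (*Hrh*), 5 muscarinic (*Chrm*) and 16 subunits of nicotinic receptors (*Chrn*). *Adra2c* is not taken by the symbols chosen. Levels are in CPM, read counts scaled to library size after TMM normalization, and a gene was taken as measured at 0.5 CPM or more in at least 3 of the 6 samples. By that measure 39 of the 51 genes were measured, and 38 of these were among the 15236 genes with enough counts to be tested.

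RNA was sequenced from manually microdissected ARC of 3 control and 3 mutant adult females, all labelled as on a mixed background of CD-1, 129P2 and C57BL/6 (the study's text names CD-1 and 129P2 for this line). Controls carried the floxed allele of the ERα gene alone (Esr1fl/fl), and mutants carried it together with Cre (Esr1fl/fl;Nkx2-1-Cre). Cre came from the *Nkx2-1* promoter, which is active in developing neurons of the basal hypothalamus, so that Cre was not confined to the ARC. The labels describe 3 females per genotype, which are the replicates. Libraries were built from 50 ng of total RNA and amplified, and the counts on genes summed to 14747944, 17877137 and 14046798 in control replicates 1, 2 and 3 and to 11792440, 15741681 and 15166356 in mutant replicates 1, 2 and 3. Where 3 values are listed for a genotype, they are those of replicates 1, 2 and 3.

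The deleted gene was looked at first. CPM of *Esr1* were 64.5, 57.5 and 48.5 in the controls and 11.8, 9.55 and 7.06 in the mutants, so that the highest mutant lay below the lowest control, and each library fell with its label (log2 fold change -2.59 with a standard error of 0.18; adjusted p = 0.000884 by the quasi-likelihood test of edgeR). For a single gene, the smallest p of an exact permutation test (two-sided) between 3 and 3 animals is 0.1, and the p-values given here come from edgeR's fit across all genes.

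Monoamine and muscarinic receptors are membrane proteins that act through G proteins, apart from the serotonin channel built from *Htr3a* and *Htr3b*, while nicotinic receptors are cation channels of several subunits that acetylcholine opens. Receptors coupled to inhibitory G proteins lower cAMP and open potassium channels, those coupled to Gs raise cAMP, and those coupled to Gq raise intracellular calcium. In the mediobasal hypothalamus these transmitters reach neurons that govern feeding, energy use and pituitary hormones, and many of their receptors also sit on the terminals of the neurons that release them.

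No receptor gene passed an adjusted p of 0.05 in edgeR, where 0.118% of all 15236 genes tested did (18 genes). That number rested on single libraries: it was 46 without control replicate 2, 9 without mutant replicate 2 and 7 without mutant replicate 3, and the number of receptor genes was 0 in each of these. DESeq2 called 1 receptor gene, *Htr1d*, among 1.27% of its genes, and limma voom called 0 against 0.131% of all genes. At an unadjusted p under 0.05, edgeR gave 8 of the 38 receptor genes tested, or 21.1%, beside 8.85% of all genes. At the same limit limma voom gave 7 of the same 38 (9.09% of all genes), and DESeq2 gave 7 of all 51, the unmeasured *Adra2b* among them (5.33% of all genes). Of the 8 by edgeR, 6 were lower in mutants (*Htr1d*, *Htr1a*, *Htr3b*, *Htr2b*, *Hrh3* and *Chrna3*; 4.01% of all genes) and 2 were higher (*Htr5b* and *Chrm2*; 4.84% of all genes). Without mutant replicate 3 the 8 genes by edgeR became 4, namely *Chrna3*, *Htr1a*, *Htr1d* and *Htr5b*. Every mutant lay below every control for 8 of the 38 receptor genes tested, where 7.88% of all genes did, and above every control for 2, where 7.88% did. The median log2 fold change was -0.060 over the 38 receptor genes and 0.0036 over all genes. These shares are descriptions, and their difference from all genes was not tested. In tissue of mixed cells, fewer cells of a type and less RNA per cell cannot be told apart.

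**Figure D1:**
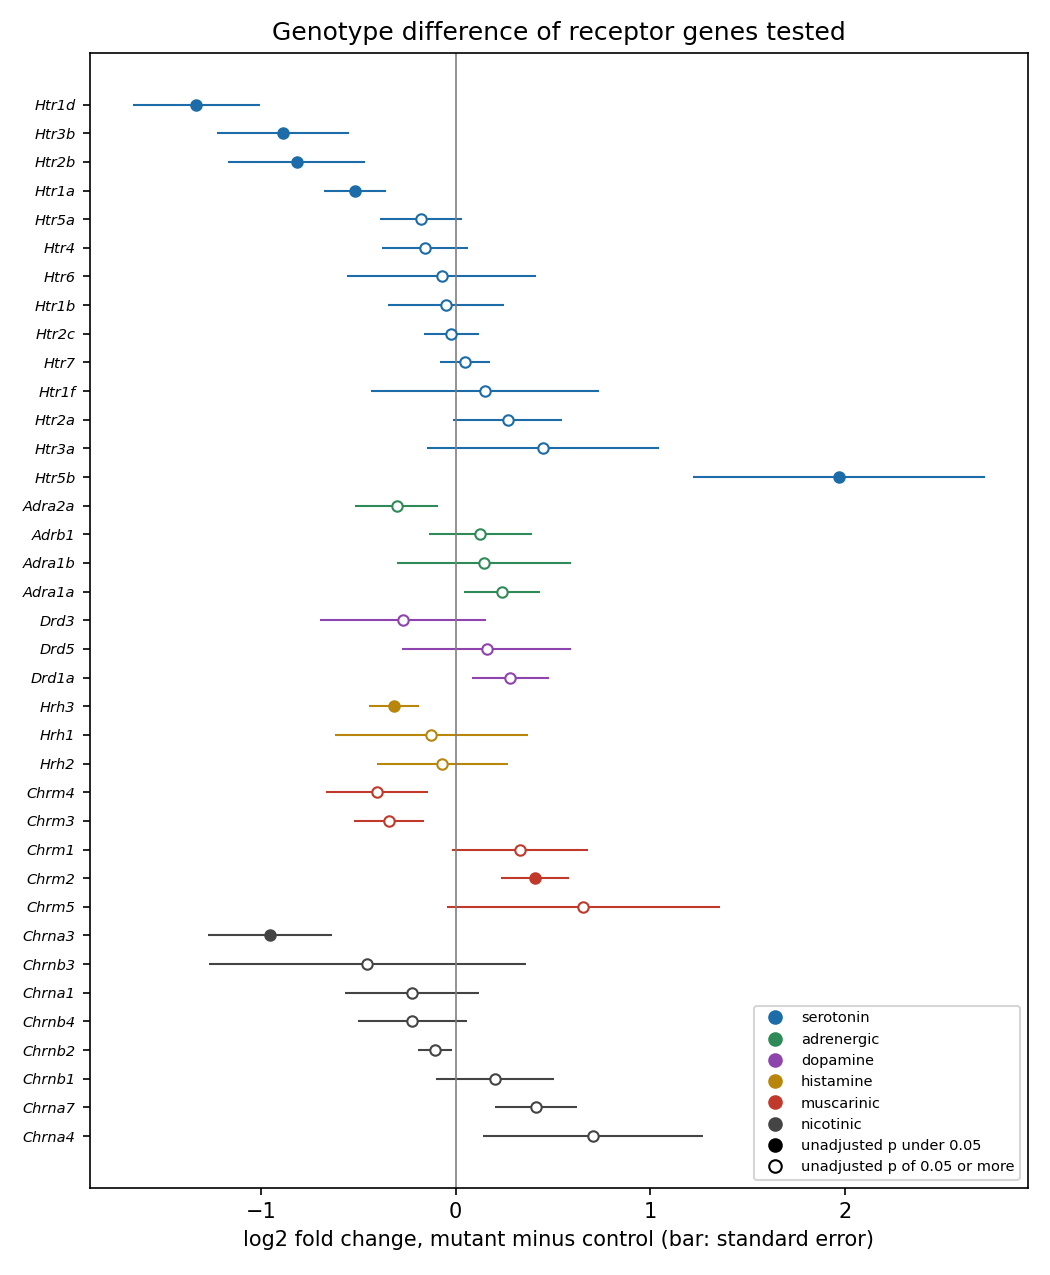
Log2 fold change of mutants over controls for receptor genes tested, by transmitter, each point with its standard error as a bar; filled points have an unadjusted p under 0.05. The 8 filled points run from -1.33 for *Htr1d* to 1.97 for *Htr5b*, and 6 of them lie below 0.

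All 14 serotonin receptor genes were measured and were among the 38 receptor genes tested. They held 5 of the 8 genes with an unadjusted p under 0.05, or 35.7% of the family beside 8.85% of all genes (edgeR). The difference between these shares was not tested. *Htr1d* encodes a receptor that inhibits cAMP formation and sits on serotonin terminals and on other axons. Its CPM were 3.35, 5.41 and 6.24 in the controls and 1.90, 1.38 and 2.66 in the mutants. All mutants lay below all controls, with control 1 the lowest of its group and nearest to mutant 3 (log2 fold change -1.33, standard error 0.33, unadjusted p = 0.00218, adjusted p = 0.195, edgeR). The adjusted p was 0.0470 in DESeq2 and 0.246 in limma voom, so that the call depended on the tool; the log2 fold change lay from -1.61 to -1.12 when each sample was left out in turn. The gene lies at chr4:135979439-136000313, plus strand in the NCBIM37 annotation of GENCODE, from which all gene positions are taken.

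*Htr1a* encodes the inhibitory receptor that serves as the autoreceptor of serotonin neurons and that is also made by the neurons they reach, in the hypothalamus among other regions. Its CPM were 20.8, 24.8 and 19.2 in the controls and 12.7, 14.5 and 17.99 in the mutants. Control 3 and mutant 3 were the closest, and the groups did not overlap (log2 fold change -0.52, standard error 0.16, unadjusted p = 0.00862, adjusted p = 0.340, edgeR). The gene lies at chr13:106233773-106238213, plus strand. *Htr1a* and *Htr1d* were the receptor genes whose unadjusted p was under 0.05 in edgeR without each of the 6 samples, in DESeq2 and in limma voom. The other inhibitory receptors of this class overlapped between genotypes, *Htr1b* from 2.31 to 4.89 CPM and *Htr1f* from 0.466 to 1.82 CPM over the 6 samples.

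*Htr3b* encodes the subunit that joins *Htr3a* in the serotonin-gated cation channel and forms no working channel by itself. CPM of *Htr3b* were 5.76, 4.42 and 5.24 in the controls and 4.04, 2.95 and 1.40 in the mutants. Mutant 3 was the lowest sample, and without it the log2 fold change was -0.56 in place of -0.89 (standard error 0.34, unadjusted p = 0.0254 and adjusted p = 0.471 over all samples, edgeR). *Htr3a* was just inside the limit for a measured gene, at 0.5 CPM or more in 3 samples, with 0.335, 0.291 and 0.789 in the controls and 0.908, 0.691 and 0.333 in the mutants. Per kilobase of exon, the mean levels of controls and mutants were 2.13 and 1.16 CPM for *Htr3b* and 0.227 and 0.309 CPM for *Htr3a*. Both genes lie on the minus strand of chromosome 9, *Htr3a* from 48707319 to 48719204 and *Htr3b* from 48743113 to 48773095, 23908 bases apart.

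*Htr2b*, a Gq-coupled receptor known from heart valves, gut and blood vessels, had CPM of 2.48, 2.50 and 3.59 in the controls and 1.98, 1.95 and 0.933 in the mutants. Here again mutant 3 was the lowest, and the mutants lay below the controls (log2 fold change -0.82, standard error 0.35, unadjusted p = 0.0429, adjusted p = 0.549, edgeR; -0.54 without mutant replicate 3). *Htr5b*, an inhibitory receptor of rodents, was the receptor gene with the largest log2 fold change, and 1 library set its size. Its CPM were 0.536, 0.233 and 0.646 in the controls and 4.04, 0.754 and 0.866 in the mutants. Mutant 1 was over 4 times the other mutants, control 2 rested on 4 counts, and the log2 fold change of 1.97 (standard error 0.75, unadjusted p = 0.0278, adjusted p = 0.480, edgeR) was 0.80 without mutant 1, with an unadjusted p of 0.214.

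By the mean level over all 6 samples per length of all exons, *Htr5a*, *Htr2a* and *Htr7* were the highest serotonin receptors; by the longest transcript, *Htr2c* lay above *Htr7* in both genotypes and above *Htr2a* in controls. *Htr5a*, an inhibitory receptor of the brain, led the family at 7.67 and 6.77 CPM per kilobase of exon in controls and mutants. CPM of *Htr5a* were 30.7, 42.99 and 54.6 in the controls and 32.3, 35.9 and 45.03 in the mutants, and the ranges of the genotypes overlapped, with control 3 the highest sample and control 1 the lowest (log2 fold change -0.18, standard error 0.21, unadjusted p = 0.424, adjusted p = 0.866, edgeR). Without single samples its log2 fold change ran from -0.37 without control 1 to 0.035 without control 3, so that its direction turned. *Htr2a*, a Gq-coupled receptor, followed at 5.26 and 6.35 CPM per kilobase and had CPM of 11.1, 23.5 and 12.3 in the controls and 16.3, 18.8 and 21.6 in the mutants; control 2 was the highest of all, the other controls were the lowest, and the log2 fold change was 0.27 (standard error 0.28). Without control 2 it was 0.69 in edgeR, with an unadjusted p of 0.00149 and an adjusted p of 0.152, and without control 1 it was 0.071. *Htr7*, which raises cAMP, was at 4.29 and 4.43 CPM per kilobase, below *Htr1a* in controls and above it in mutants (4.86 and 3.39 CPM per kilobase). Its CPM were 14.5, 13.6 and 15.6 in the controls and 14.6, 16.02 and 14.5 in the mutants, the narrowest spread of these 3 genes, and the groups overlapped (log2 fold change 0.048, standard error 0.13). *Htr2c*, the Gq-coupled receptor through which serotonin acts on proopiomelanocortin neurons of the ARC, stood at 21.6 to 30.8 CPM over the 6 samples (log2 fold change -0.022, standard error 0.14). *Htr4* (4.96 to 7.96 CPM) and *Htr6* (0.400 to 1.32 CPM), both coupled to Gs, overlapped between genotypes. Summed over the 14 genes, the level per kilobase of exon was 30.03, 38.96 and 37.7 in the controls and 31.2, 32.3 and 33.8 in the mutants. The share of *Htr1d* in that sum was 4.33% on average in controls and 1.90% in mutants.

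**Figure D2:**
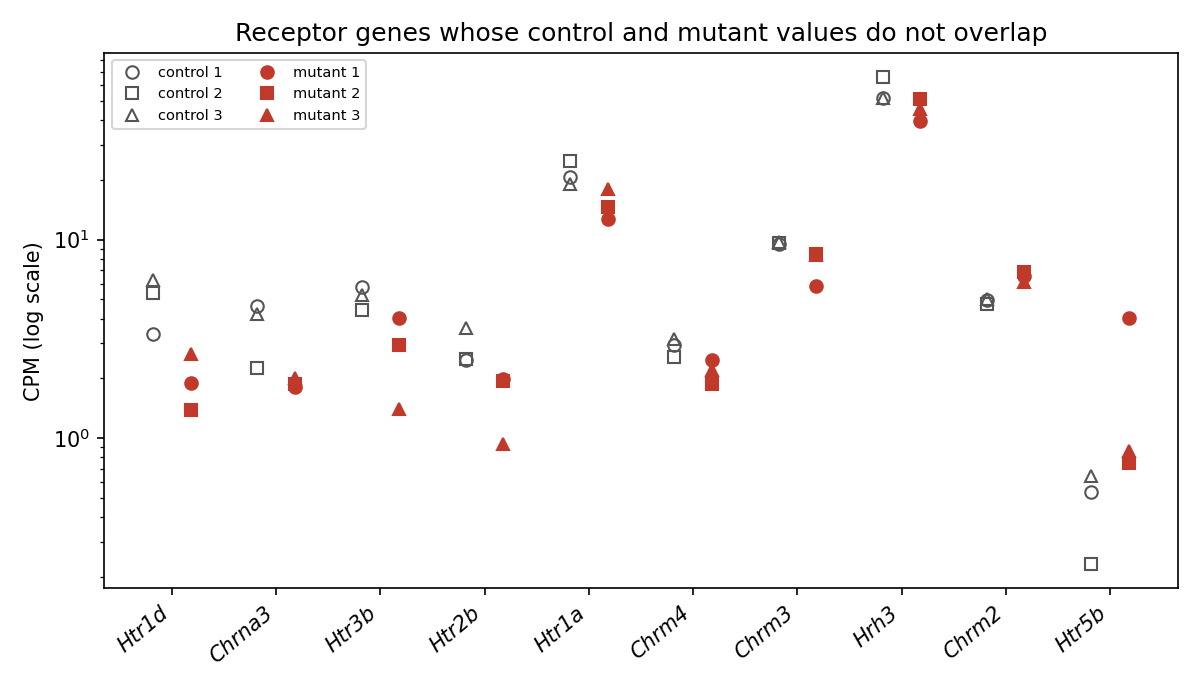
CPM on a log scale for the 10 receptor genes tested whose control and mutant values do not overlap, ordered by log2 fold change, with 1 point per sample and a shape for each replicate number. Mutants lie below controls in 8 genes and above them in *Chrm2* and *Htr5b*, where mutant 1 is at 4.04 CPM.

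Histamine receptors were represented almost wholly by *Hrh3*, the inhibitory receptor that histamine neurons use as an autoreceptor and that limits the release of other transmitters. Per kilobase of exon, the percentage of *Hrh3* in the summed level of the 3 histamine receptors measured was 94.3, 94.5 and 92.4 in the controls and 94.1, 92.2 and 92.5 in the mutants. CPM of *Hrh3* were 51.7, 65.6 and 51.9 in the controls and 39.4, 50.8 and 45.6 in the mutants. The groups were apart by little, with control 1 and control 3 just above mutant 2 (log2 fold change -0.32, standard error 0.13, unadjusted p = 0.0315, adjusted p = 0.497, edgeR). Without control 2 the log2 fold change of *Hrh3* was -0.19 with an unadjusted p of 0.130 in edgeR, and the unadjusted p was 0.111 without mutant 1 and 0.0634 without mutant 3. *Hrh2*, which raises cAMP, had CPM of 1.81, 1.86 and 3.08 in the controls and 1.82, 2.76 and 1.80 in the mutants, and *Hrh1*, coupled to Gq, had 1.54, 2.44 and 1.08 in the controls and 0.578, 1.63 and 2.40 in the mutants. Both overlapped between genotypes (log2 fold changes -0.069 and -0.12, standard errors 0.34 and 0.49), and *Hrh1* differed by more than 3 fold between mutant 1 and mutant 3.

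The genes that make and remove histamine had log2 fold changes of opposite sign and did not pass the adjusted threshold. *Hdc*, the synthesizing enzyme, had CPM of 8.17, 7.10 and 5.59 in the controls and 3.96, 4.15 and 4.66 in the mutants, all mutants being below all controls (log2 fold change -0.71, standard error 0.21, unadjusted p = 0.00655, adjusted p = 0.309, edgeR). *Hnmt*, the enzyme that methylates histamine, had CPM of 18.2, 13.7 and 18.1 in the controls and 21.8, 19.4 and 21.8 in the mutants, all mutants being above all controls (log2 fold change 0.34, unadjusted p = 0.0380, adjusted p = 0.524, edgeR).

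All 5 muscarinic receptors were measured and tested, and *Chrm5* and *Chrm1* varied most between samples of one genotype. *Chrm5*, coupled to Gq, had the highest mean level per kilobase of exon, 5.77 and 9.05 CPM in controls and mutants. *Chrm3* was second at 4.94 and 3.88 CPM per kilobase. In control 1 the order was the reverse, *Chrm3* taking 49.2% and *Chrm5* 20.3% of the summed level of the family. CPM of *Chrm5* were 3.48, 14.3 and 12.4 in the controls and 6.02, 18.2 and 23.2 in the mutants. Replicate 1 was the lowest of both genotypes, the highest sample being 4.11 times the lowest among controls and 3.85 times among mutants, and the difference between genotypes was within this spread (log2 fold change 0.66, standard error 0.70, unadjusted p = 0.393, adjusted p = 0.855, edgeR). *Chrm1*, the main Gq-coupled muscarinic receptor of the forebrain, had CPM of 7.04, 12.8 and 14.1 in the controls and 8.83, 20.1 and 13.5 in the mutants, again lowest in replicate 1 of each genotype (log2 fold change 0.33, standard error 0.35). Per kilobase of exon its mean levels were 1.80 and 2.26 CPM.

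The other muscarinic genes varied less. *Chrm3*, a Gq-coupled receptor, had CPM of 9.45, 9.66 and 9.76 in the controls and 5.86, 8.42 and 8.39 in the mutants; the controls lay close together, above all mutants, and mutant 1 was the lowest (log2 fold change -0.34, standard error 0.18, unadjusted p = 0.0840, adjusted p = 0.619, edgeR). *Chrm2*, coupled to inhibitory G proteins and often found on cholinergic terminals, had CPM of 4.96, 4.71 and 5.02 in the controls and 6.52, 6.85 and 6.13 in the mutants. All mutants lay above all controls, and each group was narrow (log2 fold change 0.41, standard error 0.18, unadjusted p = 0.0433, adjusted p = 0.551, edgeR). The unadjusted p of *Chrm2* was above 0.05 when any 1 of the 6 samples was left out. Its log2 fold change then ran from 0.37 to 0.45. *Chrm4*, the other inhibitory member, had CPM of 2.95, 2.56 and 3.16 in the controls and 2.48, 1.88 and 2.20 in the mutants and did not overlap between genotypes, with mutant 1 just below control 2 (log2 fold change -0.40, standard error 0.26, unadjusted p = 0.157, adjusted p = 0.712, edgeR).

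Nicotinic subunits were led by the pair that forms the main high-affinity nicotinic receptor of the brain. *Chrnb2*, its structural subunit, had the highest level of the family per kilobase of exon, 12.3 and 11.4 CPM in controls and mutants. Its CPM were 62.1, 71.1 and 65.3 in the controls and 61.7, 58.6 and 64.4 in the mutants, with mutant 3 and mutant 1 within or near the range of the controls (log2 fold change -0.10, standard error 0.088, adjusted p = 0.796, edgeR). *Chrna4*, its agonist-binding partner, was second at 4.84 and 7.86 CPM per kilobase and had CPM of 14.4, 28.3 and 28.98 in the controls and 15.02, 51.1 and 50.2 in the mutants. Replicate 1 of both genotypes stood near 15 CPM, the other controls near 29 and the other mutants above 50, so that the groups overlapped through mutant 1 (log2 fold change 0.71, standard error 0.56, unadjusted p = 0.268, adjusted p = 0.798, edgeR). Without mutant 1 the log2 fold change was 1.08, with an unadjusted p of 0.0115 and an adjusted p of 0.421, and without control 1 it was 0.45. *Chrna7*, the subunit that can form a channel by itself, was at 2.01 and 2.67 CPM per kilobase, below *Chrnb4* in controls and above it in mutants (2.05 and 1.75 CPM per kilobase). By the longest transcript *Chrna7* was at 3.25 and 4.31 CPM per kilobase, above *Chrnb4* in both. CPM of *Chrna7* were 6.57, 9.71 and 11.1 in the controls and 9.98, 12.4 and 13.99 in the mutants; control 1 was the lowest, control 3 exceeded mutant 1, and the groups overlapped (log2 fold change 0.41, standard error 0.21, unadjusted p = 0.0784, adjusted p = 0.608, edgeR). Without single samples the log2 fold change of *Chrna7* ran from 0.22 to 0.58, and the unadjusted p was under 0.05 without control 3 (0.0330) and without mutant 1 (0.0377).

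*Chrna3* and *Chrnb4* encode the subunits of the nicotinic receptor known from autonomic ganglia and the medial habenula, and they lie side by side with *Chrna5* on chromosome 9. *Chrna5* spans 54828687 to 54855586 on the plus strand, and *Chrna3* (54859150 to 54874366) and *Chrnb4* (54875963 to 54896351) follow on the minus strand. CPM of *Chrna3* were 4.62, 2.27 and 4.23 in the controls and 1.82, 1.88 and 1.998 in the mutants. The mutants were close together and below all controls, of which control 2 was the nearest (log2 fold change -0.95, standard error 0.32, unadjusted p = 0.0130, adjusted p = 0.388, edgeR). Its neighbour *Chrnb4* had CPM of 7.37, 4.19 and 9.90 in the controls and 5.86, 6.03 and 6.40 in the mutants, with control 2 the lowest of all samples and the mutants inside the range of the controls (log2 fold change -0.22, standard error 0.28). Without single samples the log2 fold change of *Chrna3* ran from -1.22 without control 2 to -0.76 without control 1, where the unadjusted p was 0.0599 (edgeR). Without control 2 *Chrnb4* also had an unadjusted p under 0.05 in edgeR. *Chrna5* stood at 0 to 0.503 CPM and was not measured.

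Control 2 also stood apart in markers of the pars tuberalis, the pituitary tissue that adheres to the base of the ARC. CPM of *Cga*, the gene of this list with the most counts, were 582, 3.26 and 406 in the controls and 468, 396 and 372 in the mutants. *Tshb* had 140.2, 1.92 and 70.6 in the controls and 89.3, 104 and 73.7 in the mutants, and *Pitx1* had 15.9, 0.233 and 10.6 in the controls and 16.7, 16.5 and 11.99 in the mutants. None of *Cga*, *Tshb*, *Prl* and *Pitx1* passed an adjusted or unadjusted p of 0.05, *Prl* was at 0 in control 2 and mutant 3, and *Gh* was at 0 in control 1, control 2, mutant 1 and mutant 2. Leaving out control 2 removes all that is particular to that library, so it cannot single out this tissue. The part of this tissue in the levels of *Chrna3* and *Chrnb4* was not tested.

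*Chrnb3* and *Chrna6*, neighbours on chromosome 8 with 3484 bases between them, encode subunits found in receptors of catecholamine neurons. CPM of *Chrnb3* were 0.603, 0.175 and 2.87 in the controls and 0.908, 0.817 and 0.866 in the mutants. Control 3 was 16.4 times control 2 and over 3 times each mutant, and the log2 fold change of -0.45 (standard error 0.81) turned to 1.16 without control 3. *Chrna6* had CPM of 0.469, 0.175 and 1.58 in the controls and 0.248, 0.565 and 0.400 in the mutants, also highest in control 3, and fell just outside the limit for a measured gene. Of the subunits of the muscle receptor, *Chrnb1* stood at 2.79 to 6.11 CPM, *Chrna1* at 1.63 to 3.16 CPM and *Chrne* at 0.201 to 1.29 CPM. *Chrne* was measured by the limit of 0.5 CPM in 3 samples but had too few counts to be tested.

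Among adrenergic receptors, *Adra2a*, *Adra1a*, *Adrb1* and *Adra1b* had unadjusted p above 0.05 in edgeR and groups that overlapped. *Adra2a*, the inhibitory receptor that noradrenaline neurons use as an autoreceptor, was at 3.01 and 2.44 CPM per kilobase of exon in controls and mutants, the highest of the family by all exons. Its CPM were 8.04, 13.8 and 12.6 in the controls and 8.33, 8.67 and 10.9 in the mutants; control 1 was the lowest sample and control 2 the highest (log2 fold change -0.30, standard error 0.21, unadjusted p = 0.186, adjusted p = 0.743, edgeR). Without single samples its log2 fold change ran from -0.50 without control 1 to -0.14 without control 2. By the length of the longest transcript alone *Adra1a* was the highest, at 3.46 and 4.09 CPM per kilobase. *Adra1a*, coupled to Gq, was at 1.70 and 2.005 CPM per kilobase by all exons and had CPM of 11.9, 17.97 and 14.5 in the controls and 18.4, 13.5 and 20.6 in the mutants, highest in mutant 3 and lowest in control 1 (log2 fold change 0.24, standard error 0.19). *Adrb1*, which raises cAMP, had CPM of 3.42, 4.30 and 3.44 in the controls and 5.53, 3.58 and 3.20 in the mutants; mutant 1 was the highest, the other mutants lay near the controls, and the log2 fold change was 0.13 (standard error 0.27). *Adra1b*, coupled to Gq, stood at 1.68 to 5.06 CPM over the 6 samples.

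Of the 4 dopamine receptor genes taken, which are not all of that family, the highest was *Drd1a*, a Gs-coupled receptor, at 1.84 and 2.25 CPM per kilobase of exon in controls and mutants. Its CPM were 6.77, 6.98 and 5.74 in the controls and 8.91, 6.22 and 8.66 in the mutants. Mutant 1 and mutant 3 lay above all controls and mutant 2 among them (log2 fold change 0.28, standard error 0.20, unadjusted p = 0.179, adjusted p = 0.736, edgeR). *Drd3*, an inhibitory receptor, had CPM of 0.871, 0.873 and 1.58 in the controls and 1.07, 1.01 and 0.666 in the mutants, and *Drd5*, coupled to Gs, had 1.07, 1.63 and 0.574 in the controls and 1.40, 1.32 and 0.999 in the mutants. Both overlapped between genotypes, with log2 fold changes of -0.27 and 0.16 (standard errors 0.43 and 0.43).

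Replicate 1 was the lowest sample of both genotypes for 11 of the 38 receptor genes tested, or 28.9%, where it was for 17.8% of all genes tested; these were *Adra1b*, *Adra2a*, *Chrm1*, *Chrm3*, *Chrm5*, *Chrna4*, *Chrna7*, *Hrh3*, *Htr1b*, *Htr2a* and *Htr5a*. From them *Chrm5*, *Chrna4*, *Chrm1* and *Adra1b* were picked, after their values were seen, to be read beside neighbouring tissue. CPM of *Adra1b* were 1.68, 5.003 and 4.30 in the controls and 2.06, 4.96 and 5.06 in the mutants. Markers of the ventromedial hypothalamus (VMH), which adjoins the ARC, also had replicate 1 lowest in both genotypes, except *Tac1*. *Fezf1* had CPM of 1.14, 32.7 and 24.2 in the controls and 9.90, 47.2 and 52.3 in the mutants, *Cbln1* had 11.7, 49.1 and 32.1 in the controls and 18.3, 75.4 and 77.7 in the mutants, and *Nr5a1* had 3.55, 8.84 and 7.82 in the controls and 3.05, 18.9 and 24.2 in the mutants. The 5 VMH markers listed, which also include *Adcyap1* and *Tac1*, had summed CPM of 89.3, 205 and 144 in the controls and 109, 249.8 and 312 in the mutants, none was at 0, and *Adcyap1* had the most counts. None of them passed the adjusted threshold, and *Tac1*, which the ARC also expresses, was lower in mutants at an unadjusted p of 0.00998 while the other 4 had higher means in mutants.

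With the mean log2 level of these 5 VMH markers as a covariate, the log2 fold changes were -0.13 for *Chrm5* (standard error 0.16), -0.035 for *Chrm1* (standard error 0.22) and 0.039 for *Chrna4* (standard error 0.21), against 0.66, 0.33 and 0.71 without it. These genes were picked with their values across replicates known, so smaller differences with the markers are not independent of the choice. *Adra1b* and *Htr1b* were not followed in this fit. Of other genes lowest in replicate 1, *Chrna7* had 0.20 and *Htr2a* 0.045 with the covariate, against 0.41 and 0.27 without it. *Adra2a*, *Htr5a*, *Hrh3* and *Chrm3* were further below 0 with it, at -0.50, -0.37, -0.43 and -0.46, against -0.30, -0.18, -0.32 and -0.34. At an unadjusted p under 0.05 that fit gave 7 of the 38 receptor genes beside 15.4% of all genes. *Chrna3*, *Htr3b*, *Htr2b* and *Chrm2* were lost, and *Adra2a*, *Chrm3* and *Htr5a* were gained. Log2 fold changes of the lost genes, in that order, were -0.95, -0.89, -0.82 and 0.41 without the covariate. With the covariate they were -0.77, -0.66, -0.75 and 0.43, at unadjusted p of 0.0528, 0.0525, 0.0777 and 0.0603 (edgeR). In the same fit *Htr1d* was the 1 receptor gene called (log2 fold change -1.54, standard error 0.33, adjusted p = 0.0446, edgeR), where 1.52% of all genes were called. The covariate has 1 value per sample and includes genes whose means differ between genotypes, so genotype and VMH content are only partly separable in 6 samples.

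**Figure D3:**
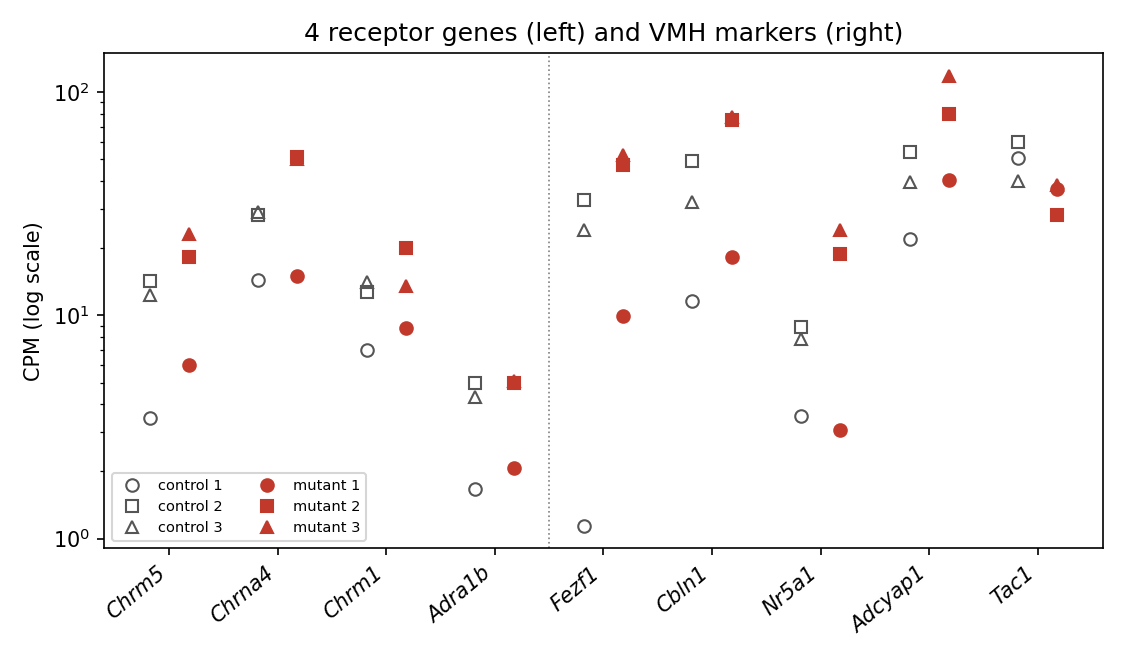
CPM on a log scale of 4 receptor genes, picked after their values were seen, and of the 5 VMH markers, with 1 point per sample and a shape for each replicate number. Circles, replicate 1, are lowest in both genotypes for *Chrm5*, *Chrna4*, *Chrm1* and *Adra1b* and for *Fezf1*, *Cbln1*, *Nr5a1* and *Adcyap1*, but not for *Tac1*.

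The remaining 12 receptor genes were not measured, and they reached 0.5 CPM in at most 2 samples. Just outside the limit, with 2 samples each, were *Adrb3* (0.248 to 0.866 CPM), *Adra1d* (0 to 1.19 CPM) and *Chrna6*. Among these *Adra1d*, a Gq-coupled receptor, had 19 counts in mutant 2 and 0 in the other mutants. *Adra2b*, an inhibitory receptor with 1 sample above the limit, had CPM of 0.268, 0.233 and 0.646 in the controls and 0, 0.0628 and 0.0666 in the mutants, which are at most 9 counts a sample, all mutants being below all controls and below 3 counts, the floor taken for a detected gene (0.175 to 0.248 CPM by sample). *Chrna5* had 1 sample above the limit as well. *Drd4* and *Hrh4* had 4 counts each over all 6 samples, *Chrng* and *Chrna10* had 8 each, *Chrnd* had 14, *Chrna9* had 19 and *Chrna2* had 21.

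Exons of other genes on the opposite strand overlap the exons of 8 receptor genes, and whether the counting used strand is not given in the sources used here, so that reads of these stretches cannot be assigned and the levels are uncertain to that extent. The overlap was largest for *Htr1b* at 852 bases (66.9%) and *Drd5* at 1386 bases (49.5%), both with noncoding transcripts. *Htr2b* shares 252 bases (11.8%) with *Psmd1*, a proteasome gene, and *Hrh3* shares 349 bases (11.1%) with the transcript *Gm17180*. The others were *Adra1d* at 147 bases (7.73%), *Chrm1* at 329 bases (5.25%), *Chrm2* at 142 bases (2.35%) and *Chrm4* at 25 bases (0.903%).

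Other genes of these transmitter systems were followed in lists by role. Of 18 genes tested for the making, packing, uptake and breakdown of the transmitters, 1 was called, *Slc6a3*, the dopamine transporter, with CPM of 19.6, 25.7 and 27.7 in the controls and 4.46, 5.72 and 5.06 in the mutants (log2 fold change -2.25, standard error 0.17, adjusted p = 0.000884, edgeR), while *Drd1a*, *Drd3* and *Drd5* overlapped between genotypes. At an unadjusted p under 0.05 the lists held 3 lower genes (*Slc6a3*, *Hdc* and *Maob*, a monoamine-degrading enzyme) and 2 higher genes (*Hnmt* and the serotonin transporter *Slc6a4*), or 5 of 18 beside 8.85% of all genes. *Maob* had CPM of 29.8, 29.7 and 26.5 in the controls and 27.7, 19.5 and 21.9 in the mutants, with mutant 1 above control 3, and *Slc6a4* had 0.737, 0.407 and 0.646 in the controls and 1.32, 1.63 and 0.866 in the mutants, at 7 counts in the lowest sample. Serotonin and noradrenaline are made outside the hypothalamus, and *Tph2* (0.266 to 0.989 CPM) and *Dbh* (0.188 to 0.407 CPM), their synthesizing enzymes, were low and had too few counts to be tested. For *Tph2* the CPM were 0.670, 0.989 and 0.502 in the controls and 0.413, 0.377 and 0.266 in the mutants. These are 4 to 17 counts a sample, with all mutants below all controls. The vesicular transporters *Slc18a2* (105 to 138 CPM) and *Slc18a1* (1.01 to 1.90 CPM), which had the most counts in the catecholamine and serotonin lists, overlapped between genotypes. Among 5 genes of acetylcholine handling 0 were called and 0 had an unadjusted p under 0.05 in edgeR; *Ache*, which breaks down acetylcholine, had CPM of 54.2, 68.00 and 62.8 in the controls and 58.2, 50.6 and 55.6 in the mutants.

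Of 21 genes for the assembly, trafficking or desensitization of these receptors, 0 were called and 2 were higher at an unadjusted p under 0.05, beside the same 8.85% of all genes. These were *Ly6e*, a membrane-anchored relative of proteins that bind nicotinic receptors (CPM of 214, 160.4 and 243 in the controls and 275, 249 and 262 in the mutants; unadjusted p = 0.0318, edgeR), and *Rgs4*, which shortens signalling of inhibitory and Gq-coupled receptors (CPM of 342, 319 and 259 in the controls and 409, 369 and 354 in the mutants; unadjusted p = 0.0226, edgeR). Of 31 G protein and effector genes, 0 were called and 3 had an unadjusted p under 0.05, beside 8.85% of all genes, all 3 lower in mutants: *Gnai1* and *Gnaz*, α subunits of inhibitory G proteins, and *Kcnj6*, a subunit of the potassium channel that these G proteins open. CPM of *Kcnj6* were 50.3, 54.04 and 52.9 in the controls and 36.5, 35.9 and 36.4 in the mutants. Both groups were narrow and apart, and the gene came just short of the threshold (log2 fold change -0.53, standard error 0.085, unadjusted p = 9.15e-05, adjusted p = 0.0567, edgeR). *Gnai1* had CPM of 651, 691 and 522 in the controls and 508, 473 and 483 in the mutants, and *Gnaz* had 102, 107 and 118 in the controls and 84.6, 92.7 and 87.1 in the mutants, with log2 fold changes of -0.35 and -0.31. The genes with the most counts were *Gnas* (2569 to 2930.2 CPM) among the G protein subunits and *Prkar1a* (1199 to 1316 CPM) among the effectors, and both had an unadjusted p above 0.05. The log2 fold change was below 0 for 21 of the 31 genes and for 49.05% of all genes tested.

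Markers of other cell types were read beside the receptors. The oligodendrocyte markers *Mag*, *Mog*, *Mobp*, *Cnp*, *Mal* and *Cldn11* were higher in mutants at an unadjusted p under 0.05, beside 4.84% of all genes. Of them 1, *Cldn11*, was called, beside 0.118% of all genes (log2 fold change 1.27, standard error 0.17, unadjusted p = 2.26e-05, adjusted p = 0.0313, edgeR). CPM of *Cldn11* were 7.91, 10.99 and 7.39 in the controls and 18.8, 22.2 and 22.6 in the mutants, and none of these markers was at 0. Of 6 microglial markers, 0 were called. Higher in mutants at an unadjusted p under 0.05 were *Csf1r* and *Cx3cr1*, beside 4.84% of all genes. Summed CPM of the 6 markers were 138, 153 and 138 in the controls and 177, 183 and 186 in the mutants. *Csf1r* took the most counts, and none was at 0. The 5 markers of neurons in general, led by *Snap25*, had summed CPM of 3327, 4224 and 4192 in the controls and 3602, 5005 and 4536 in the mutants, and 0 of them had an unadjusted p under 0.05. Markers of ARC neurons, led by *Cartpt*, had higher means in mutants in 7 of 7 genes. Over all genes tested, the log2 fold change was below 0 for 49.05%. Of the 7 markers, 2 (*Cartpt* and *Tac2*) had an unadjusted p under 0.05, beside 8.85% of all genes. Summed CPM of the 7 were 784, 819 and 759 in the controls and 1347, 886 and 1017 in the mutants. Among markers of the neighbouring dorsomedial and paraventricular nuclei, 1 of 5 tested (*Grp*) had an unadjusted p under 0.05, beside 8.85% of all genes. *Grp* was higher in mutants. The list, led by *Ppp1r17*, had summed CPM of 17.7, 36.6 and 22.5 in the controls and 26.6, 42.2 and 54.7 in the mutants. No unadjusted p was under 0.05 among 5 astrocyte markers, led by *Slc1a3* (summed CPM of 1131, 1517 and 1222 in the controls and 1262, 1241 and 1572 in the mutants). The same held for 6 tanycyte and ependymal markers, led by *Col23a1* (348, 168 and 272 in the controls and 396, 306 and 272 in the mutants), and for 7 vascular markers, led by *Rgs5* (232, 133 and 190.2 in the controls and 201, 189 and 197 in the mutants), and no gene of these lists was at 0. The part of these cell types in the levels of the receptor genes was not tested.

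Promoter sequences of RefSeq (GRCm38.p6), the 250 bases before a transcript start, were matched to 38 of the 51 receptor genes through 47 starts and searched on both strands. The full estrogen response element, an inverted repeat of GGTCA with 3 bases between the copies, was in 0 of these 47 and in 0.0639% of all 32851 promoters. A single GGTCA was in 15 of the 47, or 14 genes, and in 35.2% of all promoters. Other letters searched were GGGCGG, the Sp1 box, in 24 of 47 and 32.7% of all; TGANTCA, the AP-1 element, in 5 and 6.75%; and TGACGTCA, the cAMP response element, in 0 and 1.55%. A match is a description of the letters only. Of the 6 receptor genes lower in mutants at an unadjusted p under 0.05, all have a promoter in the table, and 3 of them hold GGTCA on one strand, *Htr1d* in 1 of its 2 promoters. These 3 are shown, chosen after their values were seen, 5′ to 3′ on the strand of the gene, with the match in capitals, which reads TGACC where GGTCA is on the other strand.
Htr1d (chr4:136423274-136423523, plus strand): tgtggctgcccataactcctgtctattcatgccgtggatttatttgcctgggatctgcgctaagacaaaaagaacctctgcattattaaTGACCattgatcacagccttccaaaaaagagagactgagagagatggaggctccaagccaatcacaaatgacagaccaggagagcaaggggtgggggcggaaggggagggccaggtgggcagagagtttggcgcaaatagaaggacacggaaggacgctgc
Chrna3 (chr9:55026563-55026812, minus strand): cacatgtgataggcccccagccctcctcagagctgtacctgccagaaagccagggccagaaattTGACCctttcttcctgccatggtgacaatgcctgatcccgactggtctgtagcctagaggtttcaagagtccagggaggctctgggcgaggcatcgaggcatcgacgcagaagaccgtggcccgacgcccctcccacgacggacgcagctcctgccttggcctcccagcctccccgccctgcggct
Htr2b (chr1:86111981-86112230, minus strand): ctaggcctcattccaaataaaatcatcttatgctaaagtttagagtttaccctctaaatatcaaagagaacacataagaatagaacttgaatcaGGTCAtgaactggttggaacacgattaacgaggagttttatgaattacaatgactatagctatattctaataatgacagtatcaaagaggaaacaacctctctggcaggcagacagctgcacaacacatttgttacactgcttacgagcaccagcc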

How the data were processed

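RNA from microdissected ARC of 3 control and 3 mutant females was sequenced by the authors, who deposited whole-number counts of reads per gene symbol without normalization. The submitters' notes name TopHat2 2.1.0, HTSeq 0.6 and mm9; the study's text joins the names of different builds, and the counts hold no coordinates. Positions and exon lengths were taken from GENCODE vM1 on NCBIM37 for symbols with a single match; the annotation behind the counts may have other exon lengths.

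Samples were grouped by label. Mutants were compared with controls in R 4.3.3 with edgeR 4.0.16 (robust quasi-likelihood test, TMM, default filter on low counts, 15236 genes), with Benjamini-Hochberg adjustment over all genes tested and a limit of 0.05. The study's tool, DESeq2 (1.42.0 here), and limma voom (3.58.1) were alternatives, as were RLE scaling, 3 other filters, a replicate block, VMH markers as covariate and leaving out each sample. The tests were also run on simulated counts with set changes, as a check of the code. That check does not show how exact the adjusted p-values are.

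Levels per length are mean CPM divided by the kilobases covered by a gene's exons. Samples of a genotype differed by a chi-square of 6.60 or more per degree of freedom, so none was a copy of another. A floor of 3 counts covers counting error only, since amplified reads are not independent molecules.

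Receptor genes are given in every sample if they had an unadjusted p under 0.05, groups that did not overlap, 1 of the 3 highest levels per length in their family, or a spread of 3 fold or more within a genotype at a mean of 1 CPM or more; others are given by range unless named as picked later. Pathway and marker genes are named for an unadjusted p under 0.05 or the most counts of their list. The members and lists were chosen with earlier results of these data known.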

Additional observations from a re-analysis of the deposited data

How the results depend on the processing

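The log2 fold change of *Esr1* kept its direction and its call under all 14 alternatives, from -2.77 to -2.42 when single samples were left out. The number of genes called in all, 18, was 191 in DESeq2, 106 with all genes of at least 1 count, 231 with VMH markers as covariate, and 7 to 46 without single samples (7 without mutant 3, 46 without control 2). Receptor genes called went from 0 to 1 in DESeq2 and to 1 with the covariate, *Htr1d* in both, and stayed at 0 in the other 12 alternatives. Receptor genes with an unadjusted p under 0.05, 8 at first, were 4 to 7 without single samples. The cause of these differences was not tested.

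Replicate numbers are shared by the genotypes, the study's methods name no pairing, and the main fit used none. Deviations from the group means correlated by 0.28, 0.047 and -0.0026 in pairs 1, 2 and 3. Pair 1 was the highest of all pairings, and control 2 correlated most with mutant 3 (0.21). Whether samples of one number share a source was not tested. With the replicate block, 123 genes were called, of them 0 receptor genes, and 9 receptor genes had an unadjusted p under 0.05, where 12.04% of all genes did. Against the fit without the block, *Chrm5*, *Chrna4* and *Chrna7* were gained, and *Chrm2* and *Htr2b* were lost. The log2 fold change of *Chrm2* was 0.41 with and without the block (unadjusted p with it 0.0628, edgeR). That of *Htr2b* was -0.83 with the block and -0.82 without it (unadjusted p with it 0.0583, edgeR).

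Direction under the alternatives was followed for the tested receptor genes that met the rule for values in every sample. It turned in those that follow. For other receptor genes, such as *Htr1b*, *Htr2c*, *Htr1f* and *Htr6*, direction was not followed. No receptor gene was called at first, so that nothing about called genes can be read from this. With the VMH covariate *Chrm5* went to -0.13 and *Chrm1* to -0.035, and in limma voom *Chrnb3* went to 0.40. Without single samples log2 fold changes ran from -0.14 to 0.28 for *Adrb1*, -0.13 to 0.57 for *Drd5*, -0.42 to 0.062 for *Drd3*, -0.31 to 0.22 for *Hrh2*, -0.58 to 0.25 for *Hrh1*, -0.012 to 0.57 for *Chrm1*, -0.99 to 1.16 for *Chrnb3*, -0.37 to 0.035 for *Htr5a* and -0.0026 to 0.10 for *Htr7*. The cause was not tested. Measured receptor genes numbered 33 at 1 CPM and 38 by edgeR's filter, against 39. Among the receptor genes given in every sample, levels per length changed by more than 1 SD with the longest transcript for *Adra1a*, *Hrh3*, *Chrm2*, *Chrna7* and *Htr7*; *Adra1a* then lay above *Adra2a* in both genotypes (3.46 and 4.09 CPM per kilobase against 3.01 and 2.44), the reverse of the order by all exons. The order also turned between *Chrna7* and *Chrnb4* in controls and between *Htr2c* and *Htr7* in both genotypes. Genes near the floor, such as *Htr5b*, rest on few counts.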
